A study of Mus musculus with 3 samples.

Results

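The genes described here are 40 genes of the unfolded protein response and the integrated stress response, listed by name and looked up by platform gene symbol. Of these, 38 were found among 19505 measured genes, and all 38 lay above the background level, as 10671 of the 19505 genes did. That level, a log2 value of 5.28, is the 95th percentile over 1410 genes for olfactory or vomeronasal receptors, and a gene passed by its mean over the arrays. Manf and Pdia4 were not analysed here. The genes were listed by name and the rule used no measured value, but earlier results of these data were known when they were chosen. They fall into 6 sensors and regulators, 14 chaperones and foldases of the endoplasmic reticulum (ER) and 9 genes of ER-associated degradation (ERAD). The other 11 are targets of ATF4.

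The unfolded protein response watches over protein folding in the ER through the membrane sensors IRE1, PERK and ATF6. IRE1 splices the Xbp1 transcript, ATF6 is cut to release a transcription factor, and both raise chaperones and ERAD genes. PERK phosphorylates the initiation factor eIF2, which slows translation in general but favours ATF4, and other kinases that sense amino acid shortage, heme lack or viral RNA converge on the same step. ATF4 then drives genes for amino acid uptake and synthesis. Dendritic cells of the mouse, plasmacytoid ones in particular, depend on Xbp1, and the ER chaperone GRP94 folds toll-like receptors.

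RNA came from wild-type plasmacytoid dendritic cells, cultured from marrow of male BALB/c mice 4 to 5 weeks old with Flt3 ligand at 100 ng/mL over 6 to 9 days, matured with CpG oligodeoxynucleotides and sorted. The study asked how 2 compounds from natural medicines inhibit migration of these cells. The groups are cells given astragaloside IV, a saponin, cells given oxymatrine, an alkaloid, and control cells, with 1 array each. Each compound acted for 12 h before 1 h with the chemokine CCL21. Doses, a vehicle and whether control cells met CCL21 are not stated in the labels, so compound and CCL21 step cannot be told apart in a difference from control. No group was replicated, so no difference below carries a test or a replicate error, and words such as lower and higher compare single arrays.

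Lineage markers were present, with 13 of 14 measured plasmacytoid dendritic cell markers above background, as were 10671 of all 19505 genes. So were 7 of 8 monocyte and macrophage markers and 7 of 10 conventional dendritic cell markers. Passing background therefore does not set plasmacytoid cells apart from these types. Plasma cells, which run a strong unfolded protein response, had 4 of 9 measured markers above background, Sdc1, Slamf7, Prdm1 and Irf4, while Jchain, Mzb1, Tnfrsf17, Fkbp11 and Pou2af1 were below it in each array. Exonic control probe sets averaged 0.04 lower with astragaloside IV and 0.13 lower with oxymatrine than in control on the log2 scale, and intronic ones 0.16 and 0.15 higher. Fewer cells of a type and less RNA per cell cannot be told apart in such samples.

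Promoter elements known from ER stress lay in ER genes of the list. The genes were listed by name as known genes of this response, so the list and the elements are not independent. The shares below describe the list and are no test of it. RefSeq windows of 300 bases (build GRCm38.p6, 250 before and 50 after the annotated start) were at hand for 34 of the 40 genes. Windows were searched on both strands for exact matches to the ER stress response element (ERSE), which is CCAAT, any 9 bases and CCACG, and which binds NF-Y together with ATF6. It was found in 9 of the 34 genes, against 37 of 27025 genes with a window, or 0.137%. All 9 were among the 20 ER chaperone, foldase and ERAD genes with a window, which is 45% of them, and it was found in 0 of 10 ATF4 targets and 0 of 4 sensors and regulators. Each stretch below runs 5′ to 3′ along the strand named, with 10 bases on either side of the element and its fixed bases in capitals.
Hspa5 (chr2:34772015-34772053, plus strand): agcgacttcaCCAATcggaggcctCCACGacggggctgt
Hsp90b1 (chr10:86705628-86705666, minus strand): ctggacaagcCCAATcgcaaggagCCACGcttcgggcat
Hsp90b1 (chr10:86705523-86705561, plus strand): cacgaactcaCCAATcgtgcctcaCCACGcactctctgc
Calr (chr8:84847065-84847103, plus strand): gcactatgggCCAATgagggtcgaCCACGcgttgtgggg
Canx (chr11:50325790-50325828, minus strand): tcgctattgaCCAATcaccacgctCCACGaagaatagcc
Pdia6 (chr12:17266481-17266519, plus strand): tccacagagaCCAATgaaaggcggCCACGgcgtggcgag
Dnajc3 (chr14:118937817-118937855, plus strand): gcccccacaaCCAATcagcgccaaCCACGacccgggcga
Creld2 (chr15:88819510-88819548, minus strand): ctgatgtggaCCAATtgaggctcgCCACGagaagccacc
Syvn1 (chr19:6046522-6046560, plus strand): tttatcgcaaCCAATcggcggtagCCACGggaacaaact
Derl3 (chr10:75893232-75893270, minus strand): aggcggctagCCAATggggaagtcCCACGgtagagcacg

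All 10 elements lie upstream of the annotated start, the nearest at 26 to 44 bases in Syvn1 and the farthest at 194 to 212 bases in Hsp90b1, which carries a second at 89 to 107 bases. The spacer differs in every stretch shown, while the outer pentamers are fixed by the search. The second form of the element (ERSE-II), ATTGG and CCACG with 1 base between, was found in Herpud1, 42 to 52 bases upstream, and in Dnajb11, 7 to 17 bases after the start, against 12 of 27025 genes, or 0.0444%. The XBP1-binding sequence TGACGTGG was in 0 of the 34 windows, in 0.714% of all genes and in 5 of 48 genes of a wider ER list, or 10.4%. The element bound by C/EBP and ATF4 dimers, TGATGNAA, was in 4 of 10 ATF4 targets with a window, Chac1, Asns, Atf3 and Trib3, and in 4.51% of all genes. Herpud1 was the 1 listed gene outside the ATF4 targets with that element and the only one of the 34 with an ER and an ATF4 element. No matches of different motifs overlapped in the listed genes. These searches describe letters and show no binding, and a window without a match says only that these letters are not in it. The ATF4-type matches upstream of a start are written out next, in the same manner.
Chac1 (chr2:119351039-119351066, minus strand): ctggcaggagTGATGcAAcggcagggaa
Asns (chr6:7693215-7693242, minus strand): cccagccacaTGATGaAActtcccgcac
Atf3 (chr1:191183426-191183453, plus strand): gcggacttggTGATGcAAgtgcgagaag
Herpud1 (chr8:94386307-94386334, minus strand): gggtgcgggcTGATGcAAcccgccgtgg

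For Hspa5 and Calr, shown as examples of ERSE carriers, the 250 bases before the start follow in the gene's own direction, with the fixed bases of the element in capitals. In Calr the element runs on the opposite strand and therefore reads CGTGG first.
Hspa5 (chr2:34771840-34772089, plus strand): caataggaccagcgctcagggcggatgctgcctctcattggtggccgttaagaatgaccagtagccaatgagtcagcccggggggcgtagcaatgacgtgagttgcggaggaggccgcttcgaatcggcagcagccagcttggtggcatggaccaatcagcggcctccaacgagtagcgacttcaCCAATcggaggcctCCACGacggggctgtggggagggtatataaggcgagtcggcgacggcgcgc
Calr (chr8:84846932-84847181, minus strand): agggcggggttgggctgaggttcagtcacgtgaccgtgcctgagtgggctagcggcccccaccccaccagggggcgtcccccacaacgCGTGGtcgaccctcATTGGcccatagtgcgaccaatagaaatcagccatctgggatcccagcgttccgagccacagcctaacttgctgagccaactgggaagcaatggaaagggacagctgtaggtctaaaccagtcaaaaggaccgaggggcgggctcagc

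**Figure D1:**
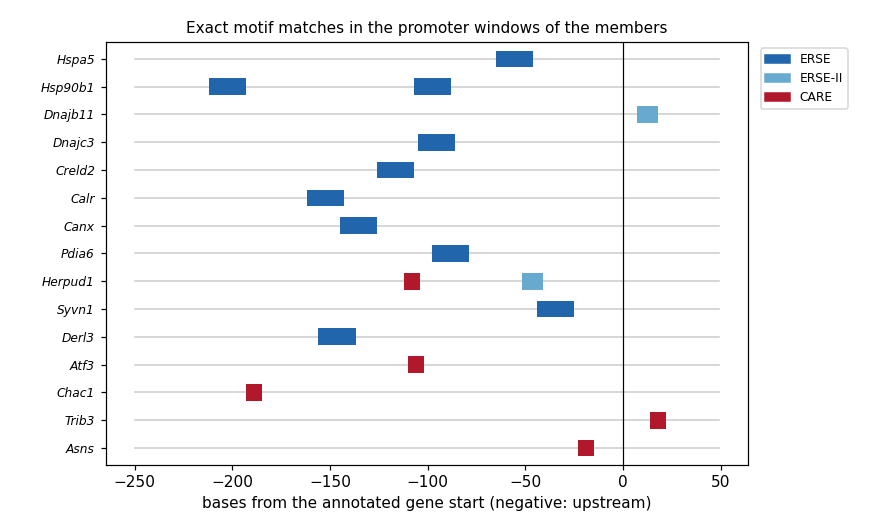
Positions of exact motif matches in the promoter windows of the listed genes, in bases from the annotated gene start (x axis), 1 row per gene with a match. ERSE and ERSE-II lie in ER chaperone, foldase and ERAD genes, and the C/EBP-ATF element (CARE) in 4 ATF4 targets and Herpud1.

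More of the listed genes were below control than above it in both treated arrays, and the differences were small. With astragaloside IV, 23 of the 38 were below control, 8 above and 7 equal, against 40.8% lower and 31.4% higher among all genes above background. With oxymatrine 22 were lower, 9 higher and 7 equal, against 46% and 29.7%. As shares of the 38 genes, 60.5% were lower with astragaloside IV and 57.9% with oxymatrine, and the medians were -0.02 and -0.04. The median over all 10671 genes above background was 0 in these comparisons and between the compounds. Both comparisons share the control array, so a high control value lowers both, and control was the highest of the 3 in 16 of the 38 genes, or 42.1%, where it was in 30.1% of all genes. These counts depend on how the arrays are scaled, because many values are equal or nearly so. After quantile normalisation 19 were lower and 19 higher with astragaloside IV, where all genes gave 38.5% and 60.9%, and 17 were lower and 21 higher with oxymatrine, where all genes gave 42.3% and 57.3%. With each array centred on its median over all named genes, 23 were lower and 15 higher with astragaloside IV and 30 lower and 8 higher with oxymatrine, against 40.8% and 59.2% and against 74.6% and 25.4% of all genes.

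Levels of other cell types' markers also differed between arrays. Of 13 neutrophil markers measured, Lcn2, Csf3r and Mmp8 were above background, and these 3 averaged 10.16 with astragaloside IV, 10.46 with oxymatrine and 10.58 in control, while all 13 averaged 5.50, 5.69 and 5.63 in the same order. Of those below background, 4 were equal in each array (S100a9, Mpo, Mmp9 and Ltf), S100a8 had 4.71, 4.84 and 5.52, and Elane and Cxcr2 were 0.97 and 0.84 higher with oxymatrine than in control. The 13 plasmacytoid dendritic cell markers averaged 10.33, 10.30 and 10.42 in the same order, and the 4 plasma cell markers above background 11.34, 11.21 and 11.31. Conventional dendritic cell markers, 7 of 10 above background, averaged 9.38, 9.47 and 9.53, where the astragaloside IV difference was -0.73 for Itgae and -0.34 for Itgax, and the oxymatrine difference -0.49 and -0.06. The 7 of 8 monocyte and macrophage markers above background averaged 12.19, 12.18 and 12.21. Their part in the differences of the listed genes was not tested.

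**Figure D2:**
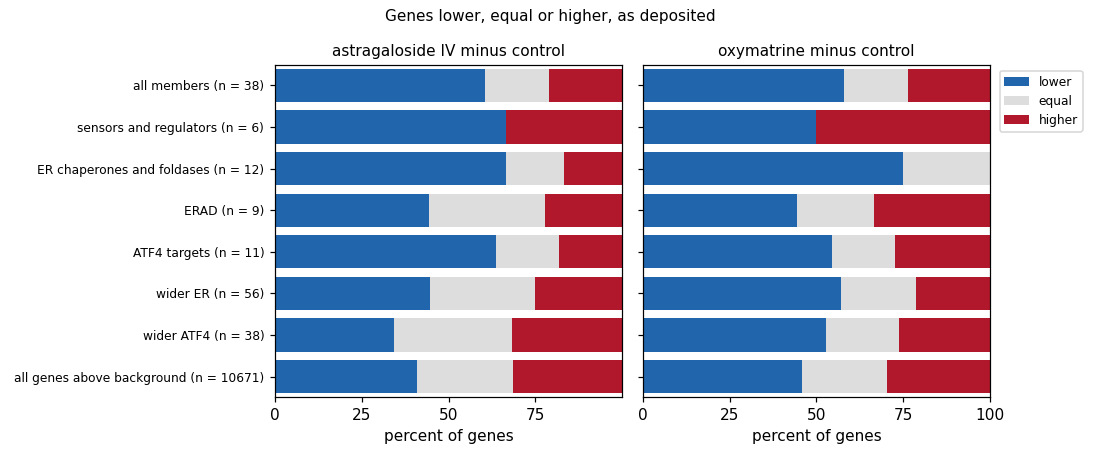
Share of genes (x axis, percent) lower than, equal to or higher than control in the astragaloside IV array (left) and the oxymatrine array (right), for the listed genes, their roles, the wider lists and all genes above background. Of the 38 genes 60.5% and 57.9% were lower, against 40.8% and 46% of all genes, in values as deposited.

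Few genes reached 1.2-fold, a log2 difference of 0.26. Lower by that much with astragaloside IV were 5 of 38, Edem1, Chac1, Phgdh, Slc7a5 and Xbp1, or 13.2% against 8.82% of all genes, and higher were 0, against 5.85%. With oxymatrine 4 were lower, Slc7a5, Pdia3, Phgdh and Xbp1, or 10.5% against 12.5%, and higher were 0, against 7% of all genes. The shares on the lower side are near those of all genes. Only just past that limit were Xbp1 and Slc7a5 with astragaloside IV, both at -0.28, and Xbp1 with oxymatrine, at -0.27. None of the 38 reached 1.5-fold in either comparison, a difference that 2.13% of all genes showed with astragaloside IV and 3.31% with oxymatrine. Shares over all genes, here and below, are not matched for level. In control the 38 genes averaged 11.97 and all genes above background 9.48, and brighter genes generally spread less between arrays. Among genes of similar level, the SD of the astragaloside IV difference was 0.25 for Ppp1r15a, at 6.62 in control, and 0.08 for Hspa5, at 16.85.

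Among the sensors and regulators, Xbp1 was lower with both compounds and Ern1 higher with both. Xbp1, the transcription factor made active by IRE1, had a log2 level of 14.19 with astragaloside IV and 14.20 with oxymatrine, against 14.47 in control. The 2 treated arrays lay within 0.01 of each other, and the differences of -0.28 and -0.27 from control are -2.63 and -2.12 times the SD of that difference among genes of similar level. After quantile normalisation the differences were -0.23 and -0.22, which is under 1.2-fold. The SD describes how far such genes spread between 2 arrays and is no replicate error. Ern1, which encodes IRE1 itself, had 11.12 with astragaloside IV, 11.02 with oxymatrine and 10.91 in control. Its differences of 0.21 and 0.10 run opposite to those of Xbp1. Splicing of Xbp1 was not measured, since the probe sets give 1 value per gene.

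Atf4, the effector of the integrated stress response, sat on opposite sides of control in the 2 treated arrays. Its level was 14.20 with astragaloside IV, 14.40 with oxymatrine and 14.30 in control, so that the treated arrays differed by -0.20. ATF4 is controlled chiefly at translation, which an array does not see. Atf6 was at 13.83 with each compound and 13.79 in control, and Eif2ak3, which encodes PERK, at 10.15 with each and 10.19 in control. Ppp1r15b, the constitutive partner of the phosphatase that resets eIF2, was at 11.46, 11.54 and 11.58 with astragaloside IV, with oxymatrine and in control. These last 3 genes spanned at most 0.12 over the arrays.

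**Figure D3:**
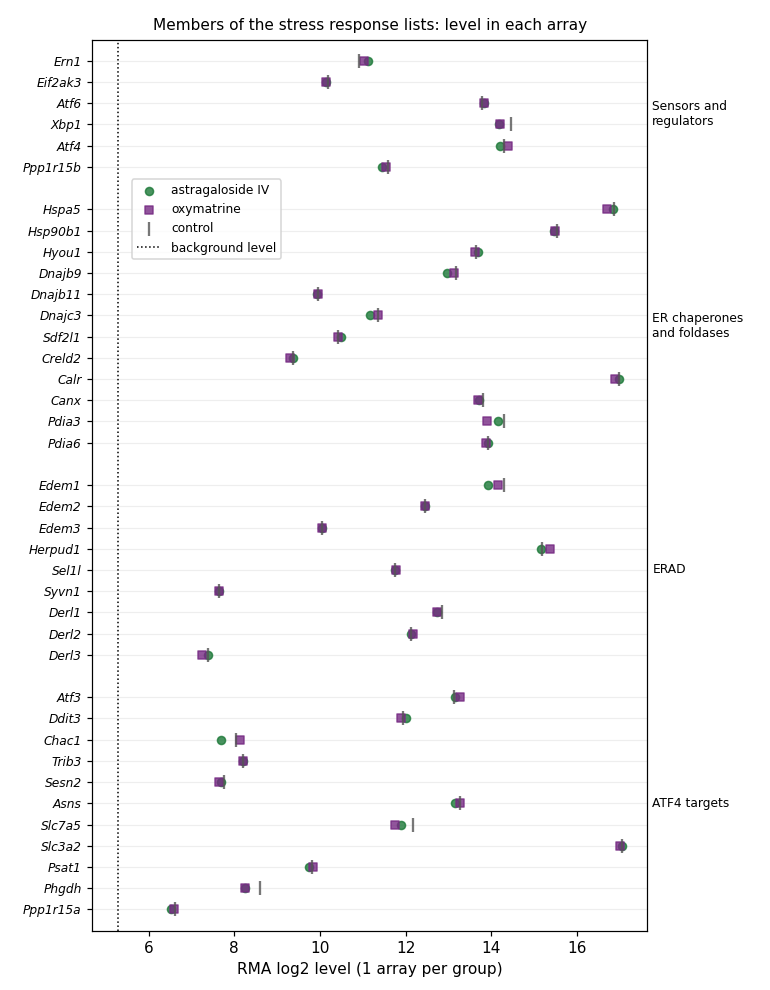
RMA log2 level (x axis) of each of the 38 measured genes in the astragaloside IV, oxymatrine and control arrays, 1 point per array. The dotted line is the background level of 5.28. The 3 points of a gene lie close together, with the widest span at 0.45 for Chac1, and levels of different genes are not comparable on an array.

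Of the 12 ER chaperones and foldases, 6 were below control in both treated arrays: Hspa5, Hsp90b1, Dnajb9, Canx, Pdia3 and Pdia6. Among all genes above background 30.1% were. With astragaloside IV the differences of Hspa5 and Pdia6 were only -0.01 each. With astragaloside IV 8 were below control, or 66.7% against 40.8% of all genes, 2 above and 2 equal. With oxymatrine 9 were below, or 75% against 46%, 0 above and 3 equal. This count depends on scaling. After quantile normalisation Hyou1, Dnajb11, Dnajc3 and Sdf2l1 were above control with oxymatrine, by 0.02, 0.06, 0.05 and 0.06, and the rest below. In that setting 57.3% of all genes were higher. Medians were -0.02 with astragaloside IV and -0.06 with oxymatrine. Pdia3, the oxidoreductase ERp57 that also serves the loading of MHC class I molecules, stood apart from the rest. It had 14.16 with astragaloside IV, 13.90 with oxymatrine and 14.30 in control, and the oxymatrine array was the lowest of the 3. Its oxymatrine difference of -0.40 is a level 0.760 times that in control, at -3.11 times the SD of genes of similar level, and its astragaloside IV difference was -0.14. The lectin chaperones that feed glycoproteins to ERp57 differed less, Calr with 16.98, 16.88 and 16.98, and Canx with 13.72, 13.70 and 13.80, in the order astragaloside IV, oxymatrine and control. For calreticulin the astragaloside IV and control values were equal.

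Hspa5 encodes BiP, the main ER chaperone of the HSP70 family. Its log2 level was 16.84 with astragaloside IV, 16.70 with oxymatrine and 16.85 in control. Only the oxymatrine array was apart, by -0.15 from control, and the treated arrays differed by 0.14. Hsp90b1, which encodes GRP94, had 15.46, 15.48 and 15.54 in the same order, a little lower with either compound. Pdia6, a further oxidoreductase, had 13.92, 13.88 and 13.93, and Hyou1, which exchanges the nucleotide on BiP, 13.69, 13.62 and 13.65.

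The J protein genes, whose products work with BiP, differed among themselves. Dnajb9, a J protein that also holds IRE1 in check, had 12.97 with astragaloside IV, 13.14 with oxymatrine and 13.18 in control. Dnajc3, known as an inhibitor of PERK as well as a J protein, had 11.16 with astragaloside IV and 11.36 both with oxymatrine and in control. For both genes the astragaloside IV array was the lowest, by -0.20 from control. The other J protein measured, Dnajb11, did not share this, with 9.94 against 9.96 in both other arrays, nor did its partner Sdf2l1, with 10.50 against 10.43 in both. Creld2, an ER stress-induced gene, was at 9.38 with astragaloside IV, 9.31 with oxymatrine and 9.38 in control.

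In ERAD, Edem1 and Herpud1 had the widest spans over the arrays, and most others were flat. Edem1, a lectin-like protein that takes misfolded glycoproteins out of the folding cycle, had 13.92 with astragaloside IV, 14.15 with oxymatrine and 14.30 in control. The order ran down from control through oxymatrine to astragaloside IV, with differences of -0.38 and -0.15, and the first is a level 0.768 times that in control and -3.56 times the SD of genes of similar level. That was the lowest difference among the 38 genes with astragaloside IV. Its relatives did not follow, as Edem2 had 12.44 with either compound and 12.45 in control and Edem3 had 10.04 in each array.

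Herpud1, a membrane protein that joins the retrotranslocation complex, had 15.15 with astragaloside IV, 15.37 with oxymatrine and 15.17 in control. Here the oxymatrine array alone was high, by 0.20 over control, and this was the highest difference of the 38 genes in that comparison. The core ligase was flat, with Syvn1 (HRD1) at 7.65 in each array and its partner Sel1l at 11.75, 11.77 and 11.75. Of the derlins, which form the exit channel, Derl1 had 12.73 with either compound and 12.84 in control, Derl2 had 12.13, 12.18 and 12.12, and Derl3 had 7.40, 7.24 and 7.40. Among the 9 ERAD genes, astragaloside IV gave 4 lower, 2 higher and 3 equal, and oxymatrine 4 lower, 3 higher and 2 equal, with a median of 0 in each comparison. The share below control was 44.4% in both, against 40.8% and 46% of all genes.

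**Figure D4:**
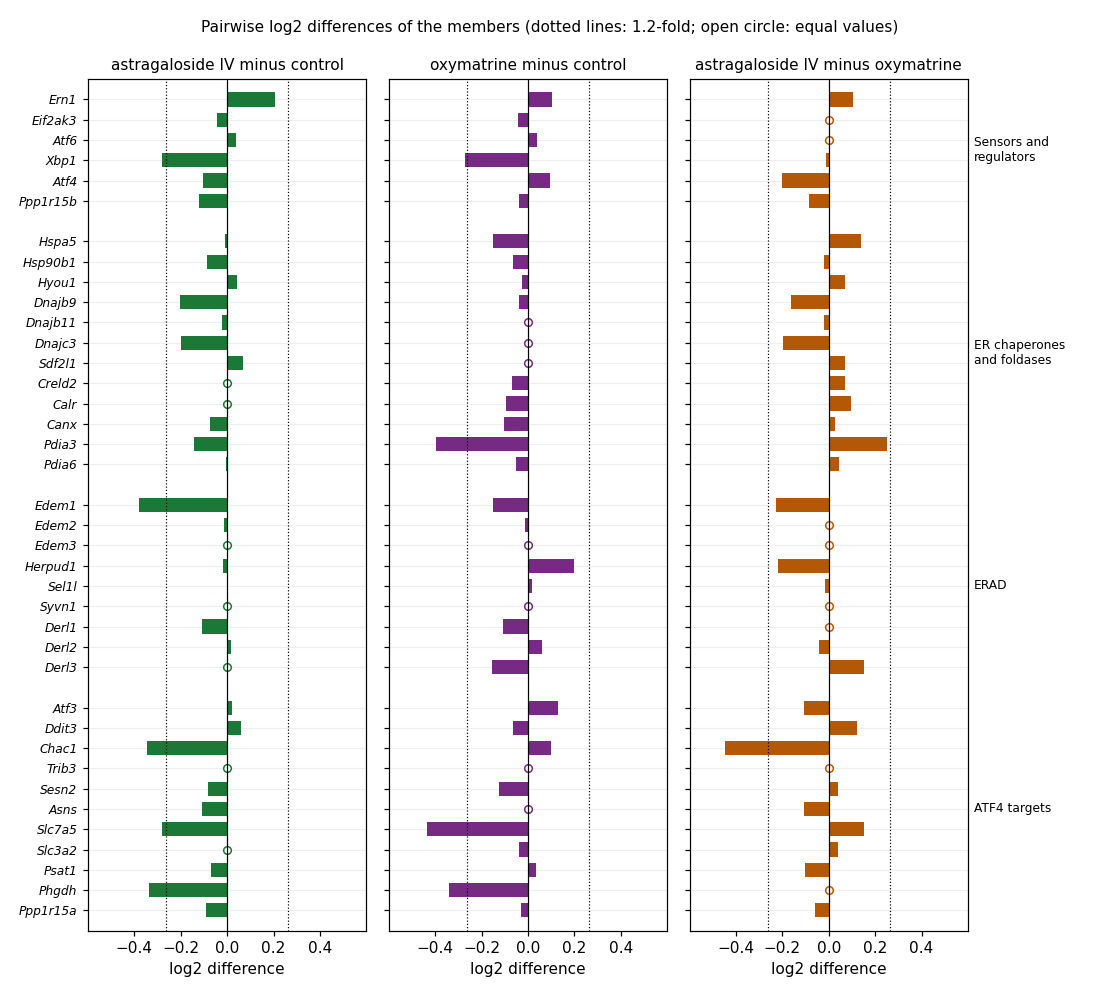
Log2 differences (x axis) of the 38 genes for astragaloside IV minus control, oxymatrine minus control and astragaloside IV minus oxymatrine, 1 row per gene and 1 array per group. Open circles mark equal values and dotted lines 1.2-fold. Bars beyond the lower line belong to 5 genes in the first panel, 4 in the second and 1 in the third, and no bar passes the upper line.

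Among ATF4 targets, the amino acid transporter gene Slc7a5 and the serine synthesis gene Phgdh were lower with both compounds. Slc7a5 encodes the light chain LAT1, which imports leucine and other large amino acids. It had 11.89 with astragaloside IV, 11.74 with oxymatrine and 12.18 in control, both treated arrays below control. The differences were -0.28 and -0.43, or -2.50 and -2.70 times the SD of genes of similar level, and the second is a level 0.740 times that in control. Slc3a2, the heavy chain that carries LAT1 to the membrane, was flat, with 17.04 with astragaloside IV, 17.00 with oxymatrine and 17.04 in control.

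Phgdh, the entry enzyme of serine synthesis, had 8.26 with each compound and 8.60 in control. Its difference of -0.34 was the same for both, at -1.46 and -1.38 times the SD of genes of similar level. Psat1, the next enzyme of that route, had 9.74 with astragaloside IV, 9.84 with oxymatrine and 9.81 in control, and was near control with either compound. Psph, which completes serine synthesis and comes from a wider list of the same pathway, went the other way, with 8.80 with astragaloside IV and 9.16 with oxymatrine against 8.51 in control. Of the 3 enzymes of this short pathway, Phgdh and Psph thus differed from control in opposite directions, with Psat1 near control. Asns, which makes asparagine, had 13.16 with astragaloside IV against 13.27 in both other arrays.

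Chac1 had the widest log2 gap between the compounds, though in units of the SD of similar genes Herpud1 (-2.65), Pdia3 (2.61), Edem1 (-2.37) and Atf4 (-2.09) were further apart. This gene encodes an enzyme that degrades glutathione, and its level was 7.69 with astragaloside IV, 8.13 with oxymatrine and 8.03 in control. Astragaloside IV lay below control by a difference of -0.35 and oxymatrine above it by 0.10, and the treated arrays differed by -0.45, which is -1.95 times the SD of genes of similar level. Atf4, its regulator, differed in the same direction, by -0.20 or -2.09 times the SD of genes of its own level. The 11 ATF4 targets did not share a direction in this comparison, with 5 lower, 4 higher and 2 equal and a median of 0. A link between Atf4 and Chac1 was not tested. Atf3 had 13.16 with astragaloside IV, 13.27 with oxymatrine and 13.14 in control. Ddit3, which encodes the pro-apoptotic factor CHOP, had 12.00, 11.88 and 11.94, and its other probe set 10.67 in each array.

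The remaining ATF4 targets were close to control. Trib3, a pseudokinase that feeds back on ATF4, was at 8.20 in each array. Sesn2, a leucine sensor that restrains mTORC1, had 7.69 with astragaloside IV, 7.64 with oxymatrine and 7.77 in control. Ppp1r15a, the inducible counterpart of Ppp1r15b, had 6.53, 6.59 and 6.62 in the same order. Astragaloside IV thus had 7 of 11 ATF4 targets below control, 2 above and 2 equal, and oxymatrine 6 below, 3 above and 2 equal. The shares below control were 63.6% and 54.5%, against 40.8% and 46% of all genes.

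ATF4 targets had a lower median than ER genes with astragaloside IV, and the medians were close with oxymatrine. The 21 chaperone, foldase and ERAD genes had a median of -0.01 with astragaloside IV, and the 11 ATF4 targets -0.08, a gap of -0.07. With oxymatrine the medians were -0.04 and -0.03, a gap of 0.01. In the wider ER and ATF4 lists described below, both medians were 0 with astragaloside IV. Lower by 1.2-fold with astragaloside IV were 3 of 11 ATF4 targets, or 27.3%, and 1 of 21 ER genes, or 4.76%, against 8.82% of all genes. With oxymatrine these were 2, or 18.2%, and 1, or 4.76%, against 12.5%. The lists differ in level, with a control mean of 10.60 for ATF4 targets and 12.53 for ER genes. With astragaloside IV, Chac1, Phgdh and Slc7a5 were -1.49, -1.46 and -2.50 times the SD of genes of similar level. Edem1, the ER gene past the limit in that comparison, was -3.56 times it. Between the compounds, each list had a median of 0. Within the ER list, 11 genes with either form of the stress element had medians of -0.01 with astragaloside IV and -0.07 with oxymatrine. For the 8 with a window and neither form the medians were -0.01 and -0.01.

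Between the treated arrays, astragaloside IV was below oxymatrine in 16 genes, above in 14 and equal in 8, against 32.5% lower and 40.7% higher among all genes. After quantile normalisation 24 were below and 14 above, where all genes gave 56.4% and 42.7%, and with arrays centred on the median 12 and 26, where all genes gave 27.1% and 72.9%. Only Chac1 was 1.2-fold lower, 1 of 38 against 6.9% of all genes, and 0 were as much higher, against 8.93%. None was 1.5-fold apart, against 2.58% of all genes. The next widest gaps were Pdia3 with 0.25, Edem1 with -0.23 and Herpud1 with -0.22, and Atf4 and Dnajc3 had -0.20 each. Over the 3 arrays, 6 of 38 genes spanned 1.2-fold or more, or 15.8%, where 28% of all genes did. That share is not matched for level either.

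A wider list of 60 ER genes was taken from translocation, glycosylation, redox folding and export. Further from control than any of the 38 genes in the same comparison were Sec24d and Wfs1 with astragaloside IV and Fkbp2 with oxymatrine. Of 56 above background, 2 were 1.2-fold lower and 1 higher with astragaloside IV, and 5 lower and 2 higher with oxymatrine. These are 3.57% and 1.79% with astragaloside IV, against 8.82% and 5.85% of all genes, and 8.93% and 3.57% with oxymatrine, against 12.5% and 7%, each below the share over all genes. Fkbp2, an ER prolyl isomerase, had 9.84 with astragaloside IV, 9.40 with oxymatrine and 10.15 in control, and both treated arrays were below control, oxymatrine by -0.75. Rpn2, a subunit of oligosaccharyltransferase, had 12.53, 12.24 and 12.64 in the same order. Sec24d, a coat protein of vesicles that leave the ER, was at 8.44 with each compound and 8.85 in control. The ER calcium regulator gene Wfs1 was higher, at 5.82 with each compound and 5.40 in control, close to the background level. The thioredoxin-like Txndc5 had 10.32 with astragaloside IV, 10.56 with oxymatrine and 10.28 in control. Atf6b, a relative of Atf6, had 12.64, 12.67 and 12.90.

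A wider list of 46 genes of ATF4 and amino acid metabolism also held members further from control than the 38 genes. Of 38 above background, 2 were 1.2-fold lower and 2 higher with astragaloside IV, and 4 lower and 1 higher with oxymatrine. These are 5.26% each with astragaloside IV and 10.5% and 2.63% with oxymatrine, again below the shares over all genes. Eif2ak4 encodes GCN2, the eIF2 kinase that senses amino acid shortage, and had 9.03 with astragaloside IV, 8.55 with oxymatrine and 8.49 in control. Only the astragaloside IV array was high, by 0.55. Aldh18a1, an enzyme of proline synthesis, had 8.51 with astragaloside IV and 8.59 with oxymatrine against 9.06 in control. Eif4ebp1, a brake on cap-dependent translation, had 9.93, 9.44 and 10.11 in the order astragaloside IV, oxymatrine and control, lowest with oxymatrine by a difference of -0.67. Jdp2, a repressor of the AP-1 family, had 10.27, 10.14 and 10.55. The list medians were 0 with astragaloside IV and -0.01 with oxymatrine, and those of the wider ER list 0 and -0.03.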

How the data were processed

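RNA of 3 samples was measured on whole-transcript expression arrays, 1 per group. The deposited values are log2 levels made by the authors with RMA, per the submitters' processing notes. The software version and array annotation build were not given in the sources used here. Values ran between 1.78 and 19.67. RMA summarises probes by median polish, which leaves many values equal between arrays: 42.1% of the listed genes and 51.6% of all genes above background had the same deposited value in at least 2 arrays.

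From these values, probe sets were named through the platform annotation of 2019, in which 19572 of 28846 had 1 symbol, 0 had several and 9274 had none. All 19572 identifiers were in the RefSeq gene table of GRCm38.p6, and 0 symbols differed. Where a gene had more than 1 probe set (55 genes), the brightest by mean stood for it. Differences are subtractions of 2 log2 values, and an SD of similar level comes from 20 bins of equal size by mean level. With 1 array per group no test was possible. Genes were counted by direction and at 1.2-fold or 1.5-fold. Any listed gene could be named, and from the wider lists the 3 lowest and 3 highest genes of each comparison. Whole upstream windows were taken in the order of the carriers' array values, which serves only to pick examples, since levels of different probe sets are not comparable, and the shorter stretches were chosen after the matches were seen. Derl2 and Psat1 had several windows, and each was searched.

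The genes and lists were chosen with earlier results of these data known. Alternatives were other level filters, scalings, fold limits, the list mean, the mean over probe sets and a shorter ATF4 list. The motif search was tested on random windows with planted motifs, and the code that counts genes was not tested in this way. The number of arrays limits the precision. Python 3.11.15, numpy 2.4.6, pandas 2.3.3 and matplotlib 3.10.9 were used.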

Additional observations from a re-analysis of the deposited data

Results flagged for a closer look

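Chac1 differed between the compounds by -0.45 on the log2 scale (7.69 with astragaloside IV, 8.13 with oxymatrine and 8.03 in control), with the 2 treated arrays on opposite sides of control. It was picked out because the compounds went in opposite directions and were at least 1.2-fold apart. With 1 array per group the difference was not tested. Of the 38 genes, 6 lay on opposite sides of control in the treated arrays, or 15.8%, where 13.6% of all genes did.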

How the results depend on the processing

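Level filters at the 90th and 99th percentile of receptor genes or none, averaging over probe sets, the shorter ATF4 list and the list mean in place of the median left every count within 1.5 times and every list median within 0.05. Scaling mattered more, since the median difference of all genes shifted by up to 0.05. The number of genes higher than control was 15 with astragaloside IV after centring on the array median, 19 after quantile normalisation and 20 after centring on the median or mean of genes above background, 2 alternatives chosen after seeing the data. With oxymatrine it was 21, 23 and 19 in the last 3 settings. Centring on the array median put 26 genes higher with astragaloside IV than with oxymatrine and 1 past 1.2-fold. After centring on the median of genes above background the oxymatrine medians were 0.0151 for all listed genes, 0.0108 for the ER list, 0.0191 for ATF4 targets, 0.0240 for the wider ER list (0.0253 after quantile normalisation) and 0.0420 for the wider ATF4 list. The astragaloside IV medians turned sign too, to 0.0038 for all listed genes and 0.0131 for the ER list (0.0162 after quantile normalisation), while that of ATF4 targets stayed below 0 in every setting. Centring on the median or mean of genes above background left 3 genes 1.2-fold lower with astragaloside IV, without Xbp1 (-0.26) and Slc7a5 (-0.26), both just under the limit. At 1.1-fold, 8 genes were lower and 1 higher with astragaloside IV, 7 and 1 with oxymatrine, and 6 and 4 between the compounds, and at 1.5-fold the counts were 0. No difference past 1.2-fold reversed its sign in these settings. No paired analysis was possible because each group has 1 array. Brightness limits what can be read from the dimmest genes, and single arrays limit all of it.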

Other observations

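Heat shock genes, the counterpart of the ER chaperones outside the ER, were near control. Most are cytosolic, but the list includes Hspd1 and Hspe1, which encode mitochondrial chaperonins. Of 10 measured, 5 were lower and 5 higher with astragaloside IV, against 40.8% and 31.4% of all genes. With oxymatrine 7 were lower, 2 higher and 1 equal, against 46% lower and 29.7% higher among all genes. The medians were -0.01 and -0.05. Bag3, a co-chaperone of HSP70 in autophagy, was the 1 gene of this list that was 1.2-fold apart from control. It was higher by that much with each compound, where 5.85% and 7% of all genes were. Its level was 9.34 with astragaloside IV and 9.37 with oxymatrine against 9.05 in control. Hspa1a, the inducible HSP70 gene, had 11.94, 11.76 and 11.79 in the same order. In the promoter windows the ERSE was found in 0 of 10 heat shock genes and 1 of 48 wider ER genes, and the C/EBP-ATF element in 12 of 37 wider ATF4 genes, or 32.4%.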
